A study of Mus musculus with 8 samples.

Results

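Gene expression in 2 induced pluripotent stem (iPS) cell clones made with 3 factors plus IL6 was set against that in 2 libraries of embryonic stem (ES) cells. These are 4 of the 8 poly-A RNA-seq libraries of the series, taken by their group labels alone, and the comparison covers the 12185 genes that reached 1 RPKM (reads scaled by gene length and by library size) in 2 or more of the 4. The 3F + IL6 clones were derived independently, carry the BALB/c background and are labelled as treated with 10 ng/mL IL6. The ES cells are biological replicates of 1 line, D3 GFP, on the 129S2/SvPas background. The remaining 4 libraries, used here for levels only, are 2 clones made with 4 factors (4F) and 2 of embryonic fibroblasts (MEF), all BALB/c. From knowledge of the study, the 3 factors are Oct4 (gene Pou5f1), Sox2 and Klf4, the 4F set adds c-Myc, and the question was whether IL6 can stand in for c-Myc. Strain, line and origin differ together between the clones and the ES cells and cannot be told apart. Each clone is 1 library, so the spread within the clones holds the difference between clones, and the spread within the ES cells is that between cultures of 1 line.

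Mouse pluripotent cells hold a shared core of transcription factors, led by Oct4, Sox2 and Nanog, and can lie along a range from a naive, inner-cell-mass-like state to a primed, epiblast-like state. IL6 and LIF are cytokines of 1 family: each binds a private receptor chain that pairs with gp130 (Il6st), and the JAK kinases then activate STAT3, which sustains the naive state in mouse ES cells. Germline genes, imprinted genes, genes of the X chromosome and antigen presentation genes are commonly examined when iPS cells are compared with ES cells.

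All 10 pluripotent markers (among them Pou5f1, Sox2, Nanog and Esrrb) were at 1 RPKM or more in each of the 4 libraries, with sums of 2730 and 2740 RPKM in the clones and 2860 and 2810 in the ES libraries. Estimated depth was 13500000 and 14300000 reads in the clones and 15900000 and 15100000 in the ES libraries. On the log2(RPKM + 1) scale, Pearson's r across genes was 0.995 between the ES libraries, 0.983 between the clones, and 0.888 to 0.902 between a clone and an ES library. The median gene differed by 0.181 between the clones and by 0.056 between the ES libraries, so the clones carried most of the spread. RNAs that lack a poly-A tail (Rn45s, Rpph1 and Rmrp) summed to 704 RPKM in ES 2 against 60.8 to 89.8 in ES 1 and the clones. A panel of 12 fibroblast markers stood at a median of 7.66% and 11.6% of the MEF level in clones 1 and 2, and at 0.338% and 0.132% in the ES libraries.

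A gene was called when limma gave a Benjamini-Hochberg adjusted p under 0.05 and both clones lay on the same side of both ES libraries. Of the 12185 genes, 6764 (55.5%) were called: 3478 (28.5%) were higher in the clones and 3286 (27.0%) were lower. A call was thus the common state, and a list of genes stands out only against that background. A gene under 1 RPKM in both libraries of 1 group is kept only through the other group, so its direction is fixed in advance. Differences of at least 1 on the log2(RPKM + 1) scale were called for 2150 genes (17.6%), 1411 higher (11.6%) and 739 lower (6.06%). The largest differences were mostly increases, with 123 genes at 3 or more and 22 at -3 or less. At the other end, the 95% interval of the difference lay within 0.5 of 0 for 3328 genes (27.3%) and within 1 of 0 for 8105 (66.5%). Groups that did not overlap, with no test, were found for 10082 genes (82.7%). Leaving out ES 1 or ES 2 reduced the calls to 3042 and 3029, and leaving out clone 1 or clone 2 raised them to 8529 and 9158. With 1 clone left out, the spread came from the ES pair alone. A call made that way, here and below, shows only that the other clone differed from the ES pair. The median difference over all genes was -0.017, so the values are read against a shift close to 0.

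**Figure D1:**
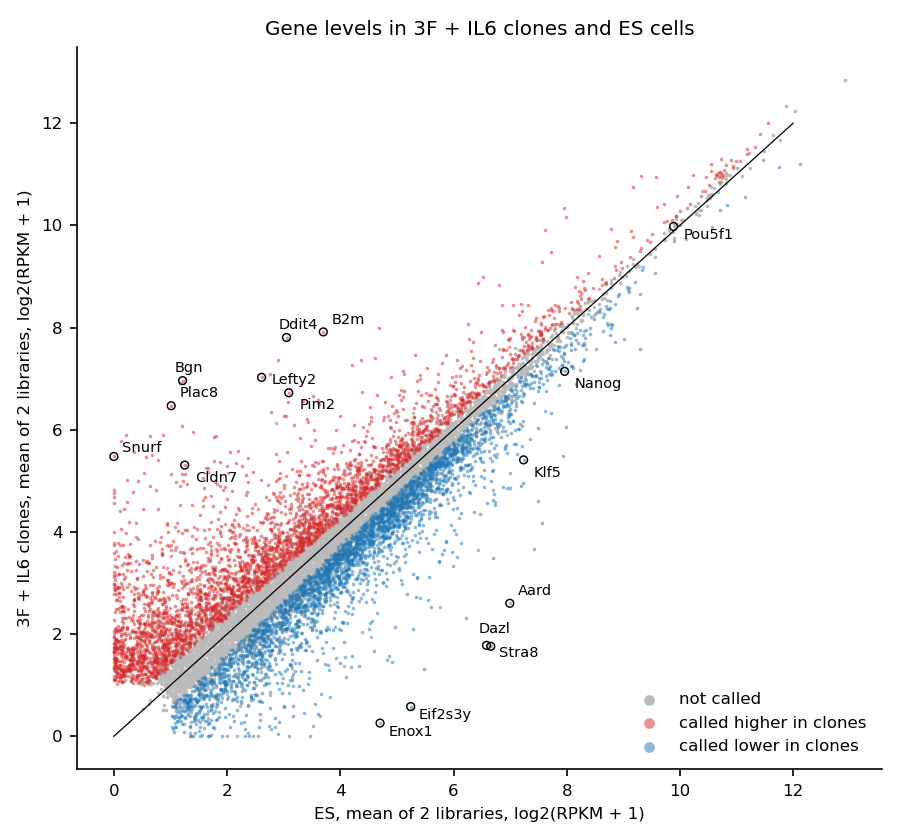
Mean level of each of the 12185 genes in the ES cells (horizontal) and in the 3F + IL6 clones (vertical), both on the log2(RPKM + 1) scale over 2 libraries, with called genes coloured by direction and the line of equality in black. Bgn and Plac8 stand near the left edge above the line, Stra8, Dazl, Eif2s3y and Enox1 far below it, and Pou5f1 on it.

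The genes that rose most included extracellular matrix and chemokine genes of fibroblasts, an imprinted gene and genes that respond to low oxygen. Bgn (biglycan, a matrix proteoglycan, chrX:73483602-73495933 in mm10) stood at 1.19 and 1.45 RPKM in the ES libraries and 105 and 146 in the clones, a difference of 5.75 (SE 0.18; limma adjusted p = 0.00041). Mmp3, a matrix metalloproteinase (chr9:7445822-7455975), stood at 0.176 and 0.148 RPKM in ES against 45.1 and 76.4 in the clones, and Dcn, the proteoglycan decorin (chr10:97479609-97518143), at 0.101 and 0.0707 against 44.1 and 66.6. The chemokine gene Ccl7 (0.0824 and 0.520 against 35.1 and 61.4 RPKM), the calcium-binding S100a4 (1.10 and 0.578 against 44.6 and 77.6) and the matrix genes Fbln2 and Col1a2 completed this set, with differences of 5.21, 5.04, 5.23 and 4.82. Clone 2 was above clone 1 at each of these 7 genes, as it was in its fibroblast marker level. In bulk RNA, more cells of a type and more RNA per cell cannot be told apart.

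Plac8, a small cysteine-rich protein gene known from placenta (chr5:100553725-100572245), was at 0.765 and 1.31 RPKM in the ES libraries and 85.2 and 90.0 in the clones, and at 19.3 and 18.8 in MEF, so the clones exceeded every other cell type in the series (75.5 and 71.7 in 4F). Snurf, the upstream reading frame of the imprinted Snurf-Snrpn transcript (chr7:59995449-60005049), was listed at 0 in both ES libraries and at 42.8 and 44.2 RPKM in the clones. Its partner Snrpn, which overlaps it, differed far less (34.5 and 35.1 against 40.6 and 41.9) and was not called without ES 1 (limma adjusted p = 0.331) or ES 2 (0.292), and reads of the pair cannot be told apart in these tables. Ccl11, the eotaxin gene, was likewise listed at 0 in both ES libraries and at 17.6 and 42.3 RPKM in the clones, with 0.213 and 0.261 in MEF. The mitochondrial Ndufa4l2 (89.8 and 20.2 RPKM in clones 1 and 2 against 0.608 and 0.355 in ES) and the stress gene Ndrg1 (114 and 38.7 against 1.26 and 1.37) differed by 4.89 and 4.87, with the larger value in clone 1. In all, 78 genes were under 0.5 RPKM in both ES libraries and at 5 or more in both clones. Beside genes already named, the most abundant were Lgals3bp (25.8 and 37.7 RPKM in the clones), a secreted glycoprotein gene, Ifi27l1 (29.8 and 40.0), an interferon-responsive gene, Adm (48.0 and 14.4), which encodes the vasodilator adrenomedullin, and Lox (33.0 and 28.9), lysyl oxidase.

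**Figure D2:**
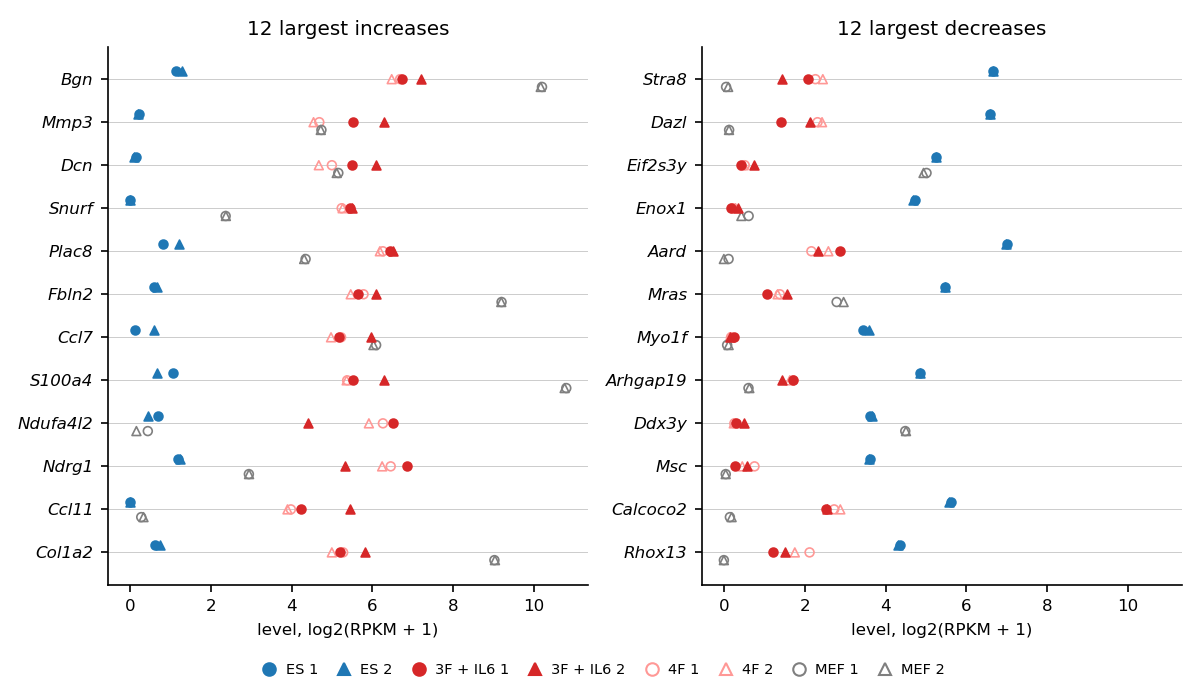
Level of the 12 genes with the largest increases (left) and the 12 with the largest decreases (right) in all 8 libraries, as log2(RPKM + 1) on the horizontal axis, with circles for replicate 1 and triangles for replicate 2. Both clones lie right of both ES libraries for each gene on the left and left of them for each gene on the right. Bgn, Fbln2, S100a4 and Col1a2 are highest in MEF.

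The largest falls joined germ cell genes, Y-linked genes and a set with no shared role. Stra8, the retinoic-acid-induced gene that opens meiosis (chr6:34920163-34939344), stood at 101 and 99.3 RPKM in the ES libraries and 3.25 and 1.70 in the clones, a fold of 40.4 between the means and a difference of -4.90 (SE 0.23; limma adjusted p = 0.000647). Dazl, a germ cell RNA-binding protein gene (chr17:50279395-50293636), fell from 94.3 and 95.4 to 1.68 and 3.40 RPKM. Aard (chr15:52040107-52045722) fell from 127 and 126 to 6.31 and 4.04 RPKM, Enox1, a cell-surface NADH oxidase gene (chr14:77156763-77721760), from 25.3 and 24.7 to 0.124 and 0.272, and Mras, a RAS-family GTPase gene (chr9:99385420-99437381), from 43.7 and 43.5 to 1.09 and 1.94. The ES replicates lay close to each other at each of these 5 genes, and both clones were far below both. Calcoco2, a selective autophagy receptor gene, Arhgap19 and the homeobox gene Rhox13 differed by -3.06, -3.29 and -2.96 and stayed above 1 RPKM in the clones. Only 12 genes were under 0.5 RPKM in both clones and at 5 or more in both ES libraries. These included Enox1 and Ddx3y, the transcription factor genes Msc (11.3 and 11.1 RPKM in ES), Meis2 (7.13 and 6.08) and Pax6, the unconventional myosin gene Myo1f (9.86 and 11.1), the proton-sensing receptor gene Gpr4 (9.50 and 9.11) and Arhgap6 (8.11 and 7.89). In the 4F clones these genes were also low, for example 0.164 and 0.221 RPKM for Enox1 and 0.131 and 0.102 for Myo1f.

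Germline genes were split. Of 36 listed, 30 were kept, and 26 of these (86.7%) were called, 18 lower and 8 higher, with a median difference of -0.92. The genes that fell include several of the piRNA and early germ cell programme, whose promoters are silenced by DNA methylation and by a germline-gene-repressing Polycomb complex in somatic cells. Taf7l, a germ cell TFIID subunit gene (chrX:134460118-134476490), fell from 17.4 and 17.3 RPKM to 1.35 and 1.77 (difference -2.85, SE 0.13; limma adjusted p = 0.000627). Mov10l1, the piRNA helicase gene, went from 9.92 and 9.99 to 1.23 and 1.57 RPKM, Stk31 from 7.59 and 8.39 to 0.910 and 1.03, the helicase gene Ddx4 (Vasa) from 10.3 and 10.4 to 2.36 and 2.00, and the co-chaperone gene Fkbp6 from 23.4 and 22.7 to 4.37 and 6.07. Tuba3a, a testis alpha-tubulin gene, fell from 121 and 124 to 44.5 and 46.4 RPKM; its near-identical copy Tuba3b can share reads with it. Aurkc, the meiotic Aurora kinase gene and outside the list, fell from 16.7 and 15.6 to 1.10 and 1.38 and was chosen after its values were seen. The 8 genes that rose include meiotic chromosome genes: Smc1b, a meiotic cohesin subunit, at 4.10 and 4.00 RPKM in ES and 14.1 and 10.6 in the clones, and Sycp3, a synaptonemal complex component, at 17.0 and 19.13 in ES and 31.4 and 27.3 in the clones. Sycp1, its partner in that complex, moved the other way (4.30 and 5.04 against 0.492 and 1.03). Without ES 1 the counts were 16 lower and 5 higher, and the call of Sycp3 was lost (limma adjusted p = 0.0663).

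Promoters were searched for motifs of known regulators of some germline and interferon genes. These were the E-box CACGTG and the E2F6-like motif TCCCGC for the germline repressor. For the interferon factors it was the interferon-stimulated response element, taken as GAAA, any 2 bases and GAAA. Members without a match occur in both lists. Sequences are the 250 bases upstream of the RefSeq start (GRCm38.p6), searched on both strands and given 5′ to 3′ on the gene's strand, with each match in capitals. Of the 32 germline genes with a window, 13 held CACGTG and 12 held TCCCGC, against 6.05% and 16.9% of all 27025 windows. Among the 15 of them that fell, 9 held CACGTG and 5 held TCCCGC. Of the 25 interferon genes with a window, 9 held that element, against 3.04% of all windows, and 7 of the 17 that rose held it. The motif in capitals is a match of letters and does not show binding. The 2 called germline genes with the smallest p among those with a match are Tuba3a and Taf7l, at chr6:125286082-125286331 and chrX:134476491-134476740, both on the minus strand. The match ends 114 bases before the start in Tuba3a and 44 bases before it in Taf7l.
Tuba3a: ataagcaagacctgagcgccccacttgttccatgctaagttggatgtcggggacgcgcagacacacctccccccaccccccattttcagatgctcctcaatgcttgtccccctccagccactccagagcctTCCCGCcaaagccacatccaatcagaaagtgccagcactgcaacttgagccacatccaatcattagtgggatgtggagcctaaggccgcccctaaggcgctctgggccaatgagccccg
Taf7l: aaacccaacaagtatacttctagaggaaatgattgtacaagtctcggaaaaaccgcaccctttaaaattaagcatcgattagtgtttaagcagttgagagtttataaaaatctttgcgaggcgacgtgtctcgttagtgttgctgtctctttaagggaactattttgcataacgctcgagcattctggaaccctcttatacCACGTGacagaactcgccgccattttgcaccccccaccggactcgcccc
The same choice among interferon genes gave Bst2 and Oas1a, at chr8:71537473-71537722 and chr5:120907526-120907775, both on the minus strand. Each holds 2 overlapping matches, which end 115 bases before the start in Bst2 and 5 bases before it in Oas1a.
Bst2: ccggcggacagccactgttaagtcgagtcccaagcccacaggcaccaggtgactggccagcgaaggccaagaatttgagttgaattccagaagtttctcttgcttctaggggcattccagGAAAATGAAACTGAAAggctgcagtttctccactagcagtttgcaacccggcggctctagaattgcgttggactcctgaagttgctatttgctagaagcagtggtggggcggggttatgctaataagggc
Oas1a: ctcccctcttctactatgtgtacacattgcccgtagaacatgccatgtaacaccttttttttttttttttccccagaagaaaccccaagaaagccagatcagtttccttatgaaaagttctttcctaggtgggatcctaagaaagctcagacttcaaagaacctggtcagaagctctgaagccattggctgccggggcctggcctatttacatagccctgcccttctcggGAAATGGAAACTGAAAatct
The germline windows were also richer in CG pairs, with a median of 17 in the 15 genes that fell against 6 in all windows. The 17 interferon windows had a median of 4. Both germline motifs hold a CG pair, and the comparison with all windows was not matched for CG content.

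Kept Y-linked genes were lower in the clones, and more X-linked genes were called higher than lower. All 4 kept genes of the Y chromosome were called lower: Eif2s3y, a translation factor gene (chrY:1010543-1028847), fell from 36.9 and 36.8 RPKM to 0.337 and 0.674, and Ddx3y, an RNA helicase gene, from 11.3 and 11.8 to 0.237 and 0.401. The histone demethylase gene Uty fell from 3.98 and 4.03 to 0.112 and 0.105, and Ube1y1, the Y copy of a ubiquitin-activating enzyme gene, from 5.34 and 4.70 to 0.299 and 0.409. The fourth classic Y gene, Kdm5d, was under the filter, at 0.148 and 0.144 RPKM in the ES libraries and 0.0669 and 0.126 in the clones. The 4 kept Y genes were each under 1 RPKM in both clones. They thus passed the filter through ES alone and could only come out lower, so the count of 4 carries no weight of its own. MEF held 31.3 and 29.7 RPKM of Eif2s3y. On the X chromosome the median difference over 446 genes was 0.35, with 216 genes called higher (48.4%, against 28.5% of all genes) and 52 called lower (11.7%, against 27.0%). The X median was 0.431 in clone 1 and 0.332 in clone 2. It was 0.335 after median centring, which moves the differences of all genes by the same amount and so cannot change the order of chromosomes. Rlim, the X-linked ubiquitin ligase gene that activates Xist, rose from 17.1 and 17.2 to 44.0 and 34.0 RPKM. Xist, the RNA that coats an inactive X, was at 0.0103 and 0.0575 RPKM in ES and 1.23 and 1.24 in the clones, a difference of 1.11, and its antisense partner Tsix went from 1.20 and 1.08 to 0.158 and 0.103. Because the strand used in counting is not given in the sources used here, reads of Xist and Tsix cannot be told apart. No label gives the sex of a line.

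Among the autosomes, chromosome 18 had the lowest median difference, -0.22 over 303 genes, with 131 called lower (43.2%) and 62 higher (20.5%). It was -0.263 in clone 1 and -0.199 in clone 2, and -0.244 after median centring. Chromosome 14 followed at -0.12, with -0.184 and -0.077 in the clones. The highest autosome was chromosome 7 at 0.082, with 330 genes higher and 204 lower. No test was made across chromosomes, whose genes are not replicates.

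**Figure D3:**
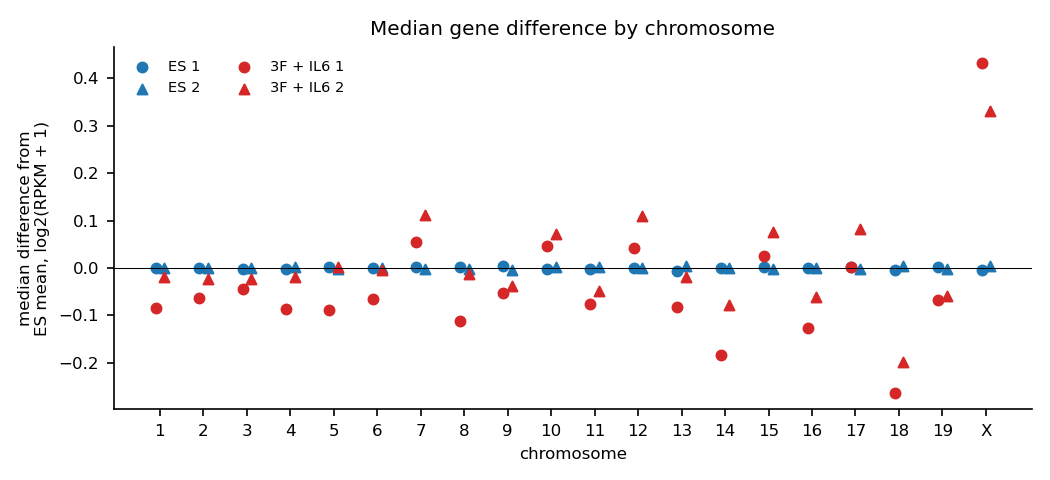
Median over the kept genes of each chromosome of the difference from the ES mean, on the log2(RPKM + 1) scale, for each ES library and each clone; the Y chromosome, with 4 genes, is left out. The clones lie at 0.431 and 0.332 on X and at -0.263 and -0.199 on chromosome 18, and the ES libraries lie close to 0 throughout.

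The core of the pluripotency network was present in both cell types. Of 20 kept core genes, 5 rose and 7 fell (60.0% called, near the 55.5% of all genes), with a median difference of 0.048; with the fibroblast share subtracted and the values rescaled, 7 rose and 5 fell. Nanog, a homeobox factor of the core, fell from 252 and 245 RPKM to 130.5 and 151, a difference of -0.82 (SE 0.084; limma adjusted p = 0.00252). The DNA-binding factor gene Dppa2 fell from 108 and 107 to 37.4 and 49.4 RPKM and the TGF-beta family ligand gene Gdf3 from 55.5 and 53.9 to 26.4 and 25.7. In contrast, Lin28a, which blocks let-7 maturation, rose from 26.5 and 27.1 to 84.6 and 101, the surface adhesion gene Epcam from 40.6 and 37.7 to 192 and 161, and the chromatin factor gene Utf1 from 319.8 and 314 to 441 and 427. Pou5f1 and Sox2 were not called, with 95% intervals of the difference from -0.02 to 0.21 and from -0.06 to 0.36. Klf4 stood at 68.2 and 69.0 RPKM in ES and 24.8 and 54.8 in the clones and was not called (limma adjusted p = 0.102). The 2 clones stood far apart at Klf4, with a difference of -0.32 without clone 1 and of -1.43 without clone 2. With both clones kept, Klf4 was called lower in the fit of all 8 libraries (limma adjusted p = 0.0339) and with array weights (0.0243). The difference of Sox2 was 0.23 without clone 1 and 0.068 without clone 2. That of Pou5f1 was 0.10 without clone 1 and 0.084 without clone 2, but it turned to -0.11 under quantile normalization. Pou5f1 was called higher, at 0.24, with the fibroblast share subtracted and the values rescaled. For Pou5f1, Sox2 and Klf4, any transcripts of the introduced factors cannot be told apart from the cells' own in these values.

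Naive-state and primed-state genes leaned in opposite directions. Of 18 kept naive genes, 9 fell and 5 rose (77.8% called, median difference -0.87). Of 17 primed and formative genes, 13 rose and 2 fell (88.2% called, median 1.28). Over all genes 55.5% were called, 28.5% higher and 27.0% lower. Klf5, a naive Krüppel-like factor gene, fell from 149 and 151 to 36.9 and 46.6 RPKM (difference -1.83, SE 0.12; limma adjusted p = 0.00103). The homeobox gene Gbx2 fell from 50.8 and 46.1 to 7.75 and 17.2, the T-box gene Tbx3 from 30.4 and 30.6 to 7.28 and 12.97, and the nuclear receptor gene Esrrb from 143 and 138 to 58.2 and 68.6. Zfp42 (Rex1), a standard naive marker, fell from 467 and 453 to 169 and 262 RPKM and Prdm14 from 11.5 and 10.7 to 5.13 and 5.12. Even so, each of these 6 genes stayed above 5 RPKM in both clones. Naive-list members that rose were Lefty1 (6.86 and 7.54 to 67.5 and 85.8), Dppa3, Fgf4, Sox15 and Tcl1, a kinase co-activator gene (12.9 and 11.7 to 20.7 and 33.5). The call of Tcl1 was lost without ES 2 (limma adjusted p = 0.0595). On the primed side, the POU factor gene Pou3f1 (Oct6) rose from 3.38 and 2.74 to 30.3 and 39.2 RPKM (difference 3.13, SE 0.16), the growth factor gene Fgf15 from 0.949 and 1.07 to 9.53 and 14.1, the Wnt effector gene Lef1 from 0.282 and 0.324 to 7.53 and 5.34 and Sox3 from 0.858 and 0.998 to 5.04 and 10.4. Fgf5, the epiblast marker, rose from 0.178 and 0.106 to 1.59 and 5.45, more in clone 2, and its call was lost without ES 2 (limma adjusted p = 0.052). The ETS factor gene Etv4 fell from 92.2 and 91.4 to 27.0 and 38.9, and the ephrin receptor gene Epha2 was the other member that fell. In the 4F clones Pou3f1 was at 16.9 and 14.8 RPKM, Fgf15 at 7.21 and 9.20, Lef1 at 3.21 and 2.80 and Sox3 at 3.14 and 2.65. Without ES 1 or ES 2, 10 or 9 primed genes rose and 1 fell. None of the 18 genes of the 2-cell-like state in the tables passed the filter.

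Several enzymes that write or oxidise DNA methylation rose in the clones. Dnmt3b, a de novo methyltransferase gene, was at 23.97 and 22.8 RPKM in ES and 142 and 199 in the clones, and its partner Dnmt3a at 12.3 and 12.1 in ES and 29.1 and 32.9 in the clones (difference 1.28, SE 0.092; limma adjusted p = 0.00123). Tet1, which oxidises methylcytosine, rose from 14.3 and 14.2 to 30.6 and 29.5 RPKM. Dnmt3l, the inactive cofactor of the de novo enzymes, was at 117 and 117 RPKM in ES and 184 and 118 in the clones, with clone 2 beside the ES libraries, and was not called, and neither was Tet2. Of the proteins that read methylation or guard imprints, Mbd2 fell from 25.5 and 24.9 to 8.86 and 8.30 RPKM and Zfp57 from 137 and 137 to 44.1 and 61.4. In total 6 of 15 genes rose and 4 fell (66.7% called, against 55.5% of all genes). Without ES 1 these counts were 5 and 2. Without ES 2 these counts were 4 and 2, and Dnmt3l was called higher and Tet2 lower only without clone 2 (differences of 0.65 and -0.52).

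In the IL6 and LIF pathway, the receptor chains and kinases that IL6 and LIF use were lower in the clones and 3 ligand genes were higher. Calls covered 73.9% of the kept list, against 55.5% of all genes. Of 23 kept members, 9 rose and 8 fell (median difference 0.11), and without either ES library 7 rose and 3 fell. Il6ra, the private IL6 receptor chain (chr3:89864059-89913196), was at 2.55 and 2.68 RPKM in the ES libraries and 0.176 and 0.663 in the clones, a difference of -1.37 (SE 0.2; limma adjusted p = 0.00569). Lifr, the LIF receptor chain, fell from 6.99 and 7.03 to 2.84 and 2.78 RPKM, and the kinase gene Jak2 from 4.35 and 4.78 to 1.59 and 1.63. The shared chain Il6st (19.8 and 20.8 against 11.6 and 13.04), Jak1 (19.9 and 20.96 against 15.8 and 15.0), Stat3 (29.0 and 28.1 against 23.01 and 21.6) and the feedback inhibitor Socs3 (57.9 and 55.2 against 45.8 and 38.6) fell by less than 1 on the log2 scale. These 4 calls were lost without ES 1 (limma adjusted p = 0.0534, 0.16, 0.232 and 0.157) and without ES 2 (0.0708, 0.234, 0.18 and 0.109). Among ligands, Il6 itself was at 0.0595 and 0 RPKM in ES and 1.96 and 3.68 in the clones, against 4.63 and 3.96 in MEF. Ctf1 (cardiotrophin 1) rose from 1.10 and 0.601 to 4.09 and 3.16 and Osm (oncostatin M) from 0.333 and 0.140 to 1.80 and 1.51, while Lif, at 1.37 and 1.31 in ES and 1.59 and 2.49 in the clones, was not called; it was called higher without clone 1 (0.58). The oncostatin receptor gene Osmr rose from 0.0258 and 0.0542 to 1.17 and 2.75 RPKM and stood at 17.6 and 16.1 in MEF, and it fell below the filter once the fibroblast share was subtracted. The feedback inhibitor gene Socs1 (3.27 and 2.89 to 7.32 and 8.98 RPKM) and the IL11 receptor gene Il11ra1 (2.03 and 2.17 to 5.08 and 6.03) also rose.

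Known STAT3 targets did not move as a block: 4 of 17 rose and 7 fell (median difference -0.42). The share called was 64.7%, against 55.5% of all genes. The serine/threonine kinase gene Pim2 rose from 7.66 and 7.37 to 101 and 108 RPKM (difference 3.63, SE 0.076; limma adjusted p = 0.00041), while its relative Pim3 fell from 114 and 113 to 55.5 and 59.2 and Pim1 was not called (54.8 and 51.5 against 59.4 and 54.0). The acute-phase factor genes Cebpb and Cebpd rose by 2.19 and 1.39. Bcl3, an NF-kappa-B co-regulator gene, fell from 51.5 and 50.1 to 21.2 and 27.4 RPKM, as did the naive factor genes Klf5, Gbx2 and Tfcp2l1, which STAT3 also targets. Osmr is the fourth target that rose.

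In the MYC network, 5 of 12 genes rose and 2 fell (58.3% called, near the 55.5% of all genes), but without either ES library only Mycl1 was called. Mycl1, the L-Myc gene, rose from 1.36 and 1.34 to 7.70 and 15.8 RPKM (difference 2.36, SE 0.33; limma adjusted p = 0.00508). Mycn, the N-Myc gene, was at 29.7 and 29.6 RPKM in ES and 43.1 and 76.9 in the clones; its call (limma adjusted p = 0.0406) was lost without ES 1 (0.0843) and without ES 2 (0.0854). Myc itself was at 20.9 and 20.4 in ES and at 5.09 and 16.8 in clones 1 and 2, lower in both clones but not called (limma adjusted p = 0.141). It was called lower with array weights (limma adjusted p = 0.0397), without clone 1 (-0.28) and without clone 2 (-1.83). MEF, at 62.4 and 62.4 RPKM, and the 4F clones, at 53.03 and 54.6, held more Myc. In the 4F clones, any transcripts of the introduced c-Myc cannot be told apart from the cells' own in these values.

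Nodal signalling, the activin-like pathway that supports the primed state, had 8 of 19 genes higher and 5 lower. The share called was 68.4%, against 55.5% of all genes. The Nodal target and inhibitor Lefty2 rose from 4.95 and 5.26 to 90.7 and 184 RPKM (difference 4.42, SE 0.34; limma adjusted p = 0.00137) and the ligand gene Nodal from 10.6 and 10.2 to 21.8 and 24.1. Inhba, the activin A subunit gene, rose from 0.292 and 0.395 to 5.83 and 6.09 and was at 467 and 459 RPKM in MEF, so it fell below the filter after subtraction of the fibroblast share. The SMAD co-repressor gene Skil rose by 1.37, and the inhibitory Smad7 and the activin B subunit gene Inhbb fell by 1.45 and 1.13. In the BMP list 4 of 16 genes rose and 5 fell (56.2% called, near the 55.5% of all genes). The ligand gene Bmp4 fell from 33.0 and 35.5 to 7.82 and 11.8 RPKM and its target Id1, a helix-loop-helix inhibitor, from 103 and 104 to 17.6 and 37.9, whereas Id2 rose from 3.84 and 3.03 to 10.6 and 17.6. Id3 was at 8.62 and 7.04 RPKM in ES and 12.5 and 34.2 in the clones and was not called; it was called higher without clone 1 (2.00), without clone 2 (0.62), with all 8 libraries and with array weights (limma adjusted p = 0.0183 and 0.0207). With the fibroblast share subtracted its difference was -2.63 (MEF level 289 and 286 RPKM). The share taken exceeded the level of Id3 in clone 1, where the value was cut off at the floor of the scale. Without ES 1, 2 BMP genes rose and 3 fell, and without ES 2, 2 rose and 2 fell.

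FGF signalling runs through ERK, which induces its own inhibitors. Calls covered 73.7% of the kept list, against 55.5% of all genes. Of 19 kept genes, 6 rose and 8 fell, and without ES 1 or ES 2 3 or 2 rose and 4 fell. Ligand genes rose (Fgf4, Fgf5 and Fgf15), while most feedback genes fell: Spry2 from 80.2 and 83.2 to 15.4 and 25.4 RPKM (difference -1.99, SE 0.23; limma adjusted p = 0.00339) and Spred1 from 40.1 and 42.0 to 12.4 and 17.5. Spry4 fell from 46.9 and 45.3 RPKM to 6.79 and 23.1, and the ERK phosphatase gene Dusp6 from 42.5 and 43.3 to 10.9 and 24.9, both lower in clone 1 than in clone 2. Their calls were lost without ES 1 (limma adjusted p = 0.0805 and 0.0702) and without ES 2 (0.0752 and 0.074). The feedback gene Spry1 rose by 0.50, a call lost without ES 1 (limma adjusted p = 0.118) and without ES 2 (0.252), and the receptor gene Fgfr3 fell by 1.03. For Wnt, 7 of 18 kept genes rose and 7 fell (77.8% called). The ligand genes Wnt7b (5.77 and 5.56 to 1.24 and 0.911 RPKM) and Wnt6 (3.70 and 3.31 to 0.539 and 0.338) and the secreted inhibitor Notum (11.7 and 10.2 to 2.84 and 3.64) fell, and the target gene Axin2 (0.543 and 0.756 to 2.12 and 2.64), Lef1 and the receptor gene Fzd2 (1.47 and 1.34 to 6.32 and 7.49) rose. Without either ES library 4 Wnt genes fell in place of 7.

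Nearly all kept fibroblast genes were higher in the clones. Of 30 matrix genes, 26 were kept, 24 rose and Pcolce fell (96.2% called, median difference 2.98). Of 16 kept identity genes 13 rose and 2 fell (93.8% called, median 2.06). Over all genes 55.5% were called. A gene under 1 RPKM in both ES libraries was kept only if both clones reached 1 RPKM, so the filter fixed its direction. With no filter, 28 of 30 matrix genes rose and 1 fell (median 2.76), and 16 of 30 identity genes rose and 2 fell (median 0.59). Of all 18765 genes in that setting, 3878 rose and 3168 fell. The collagen gene Col1a2 was at 0.533 and 0.675 RPKM in ES, 35.5 and 55.0 in the clones and 518 and 522 in MEF, and Col3a1 at 0.0896 and 0.0588 in ES, 14.3 and 28.2 in the clones and 89.1 and 89.6 in MEF. All 12 defining fibroblast markers were at 1 RPKM or more in both clones, with sums of 186 and 289 RPKM against 7.79 and 7.87 in ES and 2820 and 2810 in MEF. As a percent of MEF they did not share 1 level: Thy1 stood at 2.15% and 3.11%, Col1a1 at 4.16% and 5.79%, Postn at 7.21% and 12.7%, and Col3a1 at 16.0% and 31.6%. Dcn reached 129% and 195% and Lum 141% and 268%, above the MEF level. As a percent of the MEF level, the Y-linked Eif2s3y stood at 1.10% and 2.21% in the clones and Ddx3y at 1.10% and 1.86%. Uty stood at 3.08% and 2.89% and Kdm5d at 2.16% and 4.06%. Each was under 1 RPKM in both clones, and Kdm5d was under the filter and at 4.78% and 4.63% in the ES libraries. The matrix genes Pcolce (145 and 153 in ES and 67.4 and 74.9 in the clones) and Sparc (148 and 144 in ES and 182 and 192 in the clones) were abundant in ES cells as well. Sparc, called higher, was not called without ES 1 or ES 2 (limma adjusted p = 0.0866 and 0.114) and reversed to -1.07 with the fibroblast share subtracted. Each library's share of the MEF profile is a median over the 12 markers, some of which are matrix genes. A marker below that median, such as Col1a2, is thus taken to the floor by construction. Subtracting the share left 12 matrix genes over the filter, of which 7 rose and 5 fell, and Col1a2, Fbln2, S100a4 and Lox were no longer kept. Over all genes it moved the calls to 2621 higher and 4375 lower, from 51.4% to 37.5% higher, and the median difference to -0.16. With the values then rescaled, 49.9% of calls were higher and the median difference was -0.031. Whether other cells in the clone cultures account for these values was not tested.

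**Figure D4:**
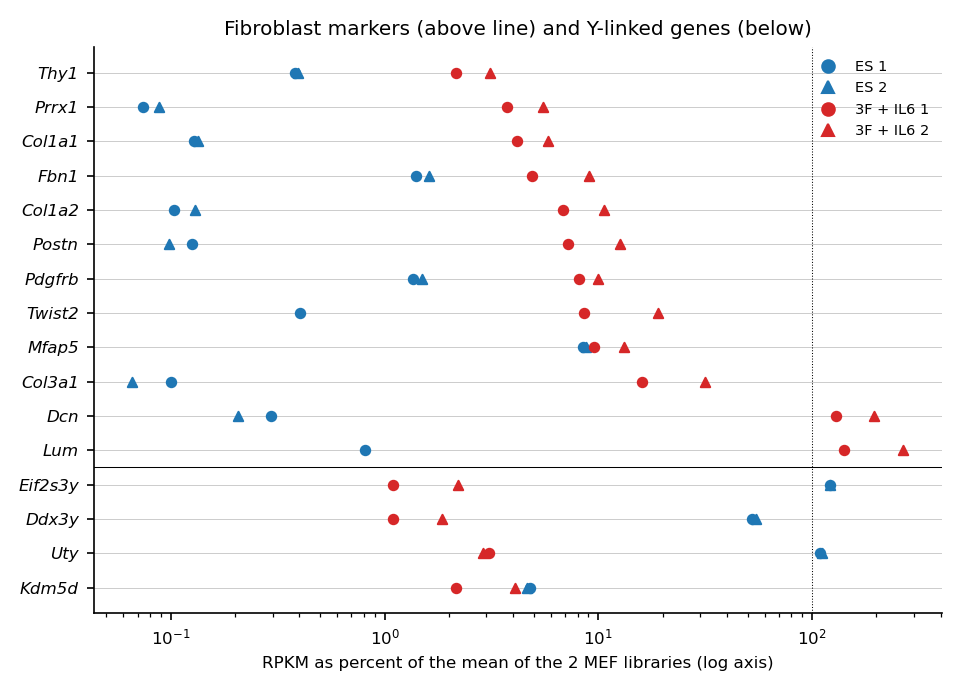
Level of 12 fibroblast markers (above the line) and 4 Y-linked genes (below) in each ES library and clone, as a percent of the mean of the 2 MEF libraries on a log axis; values of 0 (Lum and Twist2 in ES 2) cannot be drawn. The clones spread from 2.15% for Thy1 to 268% for Lum, and the Y-linked genes from 1.10% to 4.06%. In ES, Eif2s3y, Ddx3y and Uty lie between 52.2% and 121%, and Kdm5d at 4.78% and 4.63%.

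Contractile genes, which fibroblasts also express, did not follow the matrix genes. Of 14 kept, 9 fell and 2 rose (78.6% called, against 55.5% of all genes), with a median difference of -0.71. With no filter, 8 of 21 fell and 2 rose, and the median was -0.009, so the size of the list median depends on the filter. Tagln, the actin-binding transgelin gene, fell from 125 and 120.2 RPKM to 26.5 and 29.9 (difference -2.08, SE 0.082; limma adjusted p = 0.000522), with 2116 and 2131 in MEF. The myosin light chain gene Myl9 fell from 37.5 and 38.5 to 7.16 and 9.04 and skeletal actin, Acta1, from 12.4 and 12.2 to 1.99 and 1.37. Acta2, smooth muscle actin, rose from 3.85 and 4.35 to 13.6 and 19.9 RPKM and Tpm2, a tropomyosin gene, from 2.89 and 3.42 to 10.8 and 11.5, against MEF levels of 3562 and 3499 for Acta2 and 301 and 296 for Tpm2. After subtraction of the fibroblast share, 12 of 13 kept genes were lower, Acta2 was below the filter and Tpm2 reversed to -1.77. Negative values were cut off at the floor of the scale. The share taken exceeded the levels of Tpm2 and Tagln in both clones, so their differences reflect only the levels left in ES. Without ES 1 or ES 2, 6 or 5 contractile genes were called lower. Actin paralogs can share reads, so single values in this family are uncertain. Mme, a surface peptidase gene on the fibroblast identity list, was the strongest fall there, from 41.1 and 41.5 to 4.55 and 6.75 RPKM.

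Most interferon-responsive genes were higher. Of 29 kept, 25 rose (86.2%, against 28.5% of all genes called higher) and none was called lower (median difference 1.51); without either ES library 21 rose. With no filter, 28 of 35 rose and none was called lower (median difference 1.32). The transcription factor gene Irf7 was at 0 and 0.143 RPKM in ES and 6.05 and 10.5 in the clones, and Irf1 rose from 11.98 and 14.6 to 49.4 and 49.0. Zbp1, a sensor of Z-form nucleic acid, rose from 0.191 and 0.234 to 15.5 and 10.3 RPKM (difference 3.49, SE 0.21; limma adjusted p = 0.000911), and the ubiquitin-like Isg15 from 0.0875 and 0.0919 to 11.4 and 21.2. Of the genes whose promoters are printed above, Bst2 (tetherin) rose from 23.7 and 25.8 to 233 and 275 RPKM and Oas1a, an oligoadenylate synthetase gene, from 3.92 and 3.26 to 15.4 and 18.5. The signal transducer gene Stat2 rose from 5.83 and 5.63 to 18.9 and 15.6 and the chemokine gene Cxcl10 from 0.706 and 0.556 to 5.11 and 3.44. MEF levels were below the clones for Irf7 (0.754 and 1.24), Zbp1 (0.253 and 0.303) and Bst2 (27.8 and 27.5), and the count after subtraction of the fibroblast share was 24 of 29. Xaf1, a pro-apoptotic member, was lower in both clones (13.2 and 12.03 against 6.403 and 9.83) and was not called; it was called lower without clone 1 (-0.33), without clone 2 (-0.88), and, with both kept, under median centring, quantile normalization, all 8 libraries and array weights (limma adjusted p from 0.0156 to 0.0436). Those 4 settings gave 23 to 25 interferon genes higher and 1 lower, and without clone 2, 25 were higher and 2 lower.

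Antigen presentation by MHC class I showed the highest list median outside the fibroblast matrix among lists of 3 or more kept genes, at 2.51. Of its 20 kept genes 18 were higher, against 28.5% of all genes. Members under 1 RPKM in both ES libraries, such as Psmb8, Tap1 and Tap2, were kept only through the clones, so the filter fixed their direction. With no filter, 18 of 25 were higher and 1 lower, and the median was 1.73. B2m, the invariant light chain (chr2:122147686-122153083), rose from 12.7 and 11.3 RPKM to 198 and 292 (difference 4.21, SE 0.2; limma adjusted p = 0.000647), against 281 and 278 in MEF. The immunoproteasome genes Psmb8 (0.0526 and 0.221 to 22.6 and 19.07 RPKM) and Psmb9 (0.817 and 1.03 to 17.6 and 15.6) and the peptide transporter genes Tap1 (0.548 and 0.537 to 11.9 and 7.54) and Tap2 (0.0825 and 0.0532 to 8.01 and 8.00) rose together. These 4 genes lie next to each other on chromosome 17, between 34181987 and 34216321. Heavy chain genes rose as well, H2-K1 from 12.3 and 11.3 to 37.4 and 44.5 and H2-D1 from 8.15 and 7.94 to 55.0 and 81.2, while H2-Bl fell from 7.12 and 6.06 to 2.98 and 2.22. H2 heavy chains are near-identical copies that differ between mouse strains, so reads can be split differently in the 2 strains, and single H2 values are uncertain. After subtraction of the fibroblast share 18 genes were still called higher.

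Many targets of p53 rose, while p53 itself was not called. Calls covered 71.4% of the kept list, against 55.5% of all genes. Of 28 kept genes, 20 were higher and none was called lower (median difference 0.87), 18 without either ES library and 16 after subtraction of the fibroblast share, when 1 fell. Median centring, quantile normalization, all 8 libraries and array weights each called 1 lower, as did the fit without clone 2, and the fit without clone 1 called 4 lower. Trp53 was at 214 and 213 RPKM in ES and 149 and 188 in the clones and was not called. Its difference was -0.18 without clone 1 and -0.52 without clone 2. With both kept, Trp53 was called lower under the same 4 settings (limma adjusted p from 0.0167 to 0.0338). It was also called lower with the fibroblast share subtracted (limma adjusted p = 0.0391), but not once the values were rescaled. After that rescaling 17 of 27 kept targets were higher and none was called lower. Bbc3 (Puma), a BH3-only death gene, rose from 6.64 and 6.23 to 36.2 and 28.3 RPKM (difference 2.15, SE 0.14; limma adjusted p = 0.00101) and the stress cytokine gene Gdf15 from 1.85 and 1.57 to 9.89 and 7.58. The cell cycle inhibitor genes Cdkn2b (1.75 and 0.918 to 12.2 and 17.7), Cdkn2a (11.7 and 12.2 to 32.9 and 40.7), Cdkn1a (10.6 and 10.5 to 65.3 and 60.7) and the imprinted Cdkn1c (1.04 and 0.789 to 14.03 and 10.99) were all higher. They are named for that inhibitor role and are not all p53 targets. Mdm2, the p53 ubiquitin ligase gene and also a target, was not called (48.8 and 48.2 against 53.6 and 50.3); it was called higher without clone 2 (0.14). Of 22 cell cycle regulators 10 rose and 3 fell (59.1% called, near the 55.5% of all genes), 8 and 1 without either ES library: among cyclins, Ccnd1 rose from 17.3 and 16.6 to 39.5 and 57.1 RPKM and Ccnd3 fell from 245 and 246 to 171 and 151. Ccnd2 rose from 1.74 and 1.48 to 5.48 and 9.94, with 105 and 101 in MEF, and reversed to -1.24 after subtraction. The share taken exceeded its level in both clones, so that value reflects only the level left in ES. Among 24 apoptosis regulators 11 rose and 2 fell (54.2% called), including the survival gene Bcl2l1, down from 35.1 and 35.1 to 19.6 and 18.01. Without ES 1, 7 apoptosis genes were called higher and 1 lower.

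Low-oxygen and glycolytic genes were higher, and more so in clone 1. Of the kept genes 73.9% and 73.1% were called, against 55.5% of all genes. Of 23 low-oxygen genes 16 rose and 1 fell (median difference 1.41; 1.68 in clone 1 and 0.978 in clone 2), and of 26 glycolytic genes 16 rose and 3 fell (median 1.14; 1.40 and 0.812). Ddit4, an mTORC1 inhibitor gene, was at 7.63 and 6.95 RPKM in the ES libraries and at 339 and 146 in clones 1 and 2 (difference 4.75, SE 0.4; limma adjusted p = 0.00165). Bnip3, a mitophagy receptor gene, rose from 5.72 and 7.19 to 255 and 106 RPKM, and the oxygen-sensing hydroxylase gene Egln3 from 1.32 and 1.19 to 41.3 and 20.02. The collagen hydroxylase gene P4ha1 (4.10 and 4.29 to 44.0 and 21.02) and the growth factor gene Vegfa (7.68 and 7.44 to 20.1 and 15.9) rose less. Hif1a, whose product is regulated mainly at the protein level, was not called (42.4 and 44.6 against 31.2 and 37.6). Its difference was -0.21 without clone 1 and -0.47 without clone 2. With both kept, Hif1a was called lower under median centring, all 8 libraries and array weights (limma adjusted p from 0.0133 to 0.0376). It was also called lower with the fibroblast share subtracted (limma adjusted p = 0.0136), but not once the values were rescaled. Kdm3a, the member that fell (35.8 and 35.0 to 26.2 and 19.2), lost its call without ES 1 (limma adjusted p = 0.0972) and without ES 2 (0.086). In glycolysis, Tpi1 rose from 90.2 and 90.6 to 682 and 378 RPKM, Aldoc from 2.92 and 2.71 to 46.5 and 15.9, Eno2 from 0.598 and 0.932 to 23.5 and 6.95, and the lactate exporter gene Slc16a3 from 7.30 and 7.57 to 112 and 76.3. The glucose transporter gene Slc2a1 was not called: clone 1 was above the ES libraries and clone 2 below them (431 and 260.1 against 275 and 271 RPKM). It was called higher without clone 2 (0.66), and its difference was -0.068 without clone 1. Hexokinase 2, Hk2, and the lactate dehydrogenase B gene Ldhb fell slightly, and neither call held without ES 1 (limma adjusted p = 0.141 and 0.0735) or ES 2 (0.135 and 0.0998). The 4F clones had Ddit4 at 278 and 254 and Bnip3 at 192 and 198 RPKM. Oxygen tension and medium are not given in the labels, and their part was not tested.

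Of 32 genes of pyruvate entry and the TCA cycle, which oxidise pyruvate in the mitochondrion, 10 rose and 5 fell (46.9% called, near the 55.5% of all genes; median difference 0.11), and without either ES library 3 rose and 2 fell. Pdk4, a kinase gene that restrains pyruvate dehydrogenase, was the largest change, from 0.765 and 0.766 to 8.18 and 7.78 RPKM. For the NRF2 and glutathione genes that follow, the share called was 89.3%. Of 28 NRF2 and glutathione genes, which serve antioxidant defence, 18 rose and 7 fell (median 0.46); without ES 1, 13 rose and 1 fell, and without ES 2, 11 rose and 2 fell. Gpx2, a glutathione peroxidase gene, rose from 1.76 and 1.15 to 24.7 and 35.5 RPKM (difference 3.65, SE 0.22; limma adjusted p = 0.000919), the glutathione transferase gene Gstm2 from 8.80 and 7.06 to 41.6 and 32.1, and the pentose phosphate enzyme gene G6pdx from 19.7 and 20.8 to 69.4 and 61.3.

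Epithelial genes rose broadly. Of 33 kept, 22 rose and 4 fell (78.8% called, against 55.5% of all genes), with a median difference of 1.13. After subtraction of the fibroblast share 22 rose. The claudin gene Cldn7, a tight junction component (chr11:69964779-69967885), rose from 1.32 and 1.44 RPKM to 46.8 and 31.8 (difference 4.06, SE 0.2; limma adjusted p = 0.000704) and was listed at 0 in both MEF libraries. The epithelial clathrin adaptor gene Ap1m2 rose from 2.34 and 1.84 to 40.5 and 33.6 RPKM, the serine protease gene Prss8 from 1.57 and 1.61 to 26.5 and 18.4, the polarity gene Crb3 from 2.01 and 2.11 to 26.0 and 23.4 and the recycling GTPase gene Rab25 from 0.306 and 1.09 to 17.7 and 9.59. E-cadherin, Cdh1, which ES cells already hold at a high level, rose less (80.5 and 81.4 to 131 and 125). The keratin gene Krt8 was at 17.2 and 17.0 RPKM in ES and 22.3 and 60.3 in clones 1 and 2 and was not called; it was called higher without clone 1 (1.76) or clone 2 (0.36), with all 8 libraries and with array weights (limma adjusted p = 0.0386 and 0.0269). The 4 falls, among them the desmosomal Dsg2 (13.6 and 13.5 to 6.08 and 9.10), were all lost without ES 1 and without ES 2, with limma adjusted p = 0.0981 and 0.0946 for Dsg2. Epithelial and fibroblast genes were thus both higher in the clones than in the ES cells.

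Imprinted genes outside the Dlk1-Dio3 domain were called for 25 of 35 kept members (71.4%, against 55.5% of all genes), 19 higher and 6 lower. The median difference was 0.44, and Dcn counts here and among the matrix genes. Without ES 1, 11 rose and 3 fell, and without ES 2, 11 rose and 4 fell. Grb10, a maternally expressed growth inhibitor gene, rose from 2.57 and 2.34 to 25.03 and 36.8 RPKM (difference 3.18, SE 0.2; limma adjusted p = 0.000937), Peg3, a paternally expressed zinc finger gene, from 2.56 and 2.73 to 9.75 and 9.38, and the placental factor gene Ascl2 from 0.316 and 0.332 to 9.01 and 6.42. Impact, a translation regulator gene, fell from 68.0 and 70.8 to 20.01 and 19.6 RPKM, Zdbf2 from 13.7 and 14.1 to 2.95 and 5.32, and the zinc finger gene Plagl1 from 3.81 and 3.84 to 0.557 and 0.851. The neighbours H19 (21.02 and 21.99 to 39.4 and 37.96) and Igf2 (6.27 and 5.84 to 9.86 and 11.1) both rose, and MEF held 196 and 195 RPKM of H19 and 147 and 148 of Igf2. With the fibroblast share subtracted Igf2 reversed to -2.75, while H19, at -0.12, was no longer called (limma adjusted p = 0.678), nor was it after rescaling (0.952). For Igf2 the share taken exceeded its level in both clones, so its value reflects only the level left in ES. The call of Igf2 was also lost without ES 1 (limma adjusted p = 0.065) and without ES 2 (0.0886). In the Dlk1-Dio3 domain, whose maternal non-coding RNAs can be silenced in iPS cells, the 2 kept genes rose. Rian was at 2.29 and 2.24 RPKM in ES and 40.0 and 15.3 in the clones and Meg3 at 0.332 and 0.308 in ES and 4.72 and 1.58 in the clones. MEF held 118 and 117 RPKM of Rian and 24 and 23.96 of Meg3. The call of Meg3 was lost without ES 1 (limma adjusted p = 0.0564) and without ES 2 (0.0599). After subtraction of the fibroblast share Meg3 was below the filter and Rian was not called (limma adjusted p = 0.306). Mirg, Dlk1 and Rtl1 of the domain were under the filter, with Mirg at 0.445 and 0.156 RPKM in ES and 3.02 and 0.928 in the clones.

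Genes of the first differentiated lineages gave mixed counts. Against 55.5% called of all genes, 55.6% of the kept endoderm genes, 60.0% of the Hox genes and 66.7% of the blood and endothelial genes were called. The share was 77.8% for neural progenitor and 76.9% for trophoblast genes. Of 24 neural progenitor genes listed, 9 were kept, 5 fell and 2 rose (median difference -0.91), and the 4 defining neural markers summed to 10.3 and 10.7 RPKM in ES against 0.705 and 1.18 in the clones. Any kept member under 1 RPKM in both clones passed the filter through ES alone, so its fall was fixed. With no filter, 5 of 22 neural genes rose and 5 fell, with a median difference of 0.021, so the lean depends on the filter. Sox1, a neural plate factor gene, fell from 4.07 and 4.61 to 0.509 and 1.01 RPKM. Of 13 kept trophoblast genes 7 fell and 3 rose, Plac8 among them, and without ES 1 or ES 2, 4 or 3 fell. The X-linked homeobox gene Esx1 fell from 8.40 and 7.58 to 1.59 and 1.10. Of 18 kept primitive and visceral endoderm genes 5 rose and 5 fell, 4 and 1 without either ES library, and their 6 defining markers summed to 4.51 and 7.54 RPKM in the clones and 7.14 and 6.94 in ES. Only 3 of 18 primitive streak genes passed the filter, and 1 fell. Of 6 kept blood and endothelial genes 4 rose, and 2 without either ES library. Cd34, a surface sialomucin gene, rose from 0.407 and 0.303 to 7.62 and 11.3 RPKM, and the lysozyme gene Lyz2 was listed at 0 in both ES libraries and at 18.1 and 28.7 in the clones. Only 1 of the 4 defining blood markers in the tables reached 1 RPKM in each of the ES and clone libraries. Of 5 kept Hox genes 2 rose and 1 fell.

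Against 55.5% called of all genes, the share was 50.0% for AP-1 immediate early genes, 71.4% for YAP targets and 53.8% for LIN28 and let-7 targets. Immediate early genes of the AP-1 family rose in 6 of 12 kept cases and none fell. Jun, the AP-1 core subunit, rose from 1.73 and 1.49 to 11.4 and 12.4 RPKM, with 55.9 and 57.2 in MEF. After subtraction of the fibroblast share 3 of 8 rose and 2 fell. Of 14 kept targets and partners of the growth regulator YAP, 5 rose and 5 fell, 3 and 3 without ES 1, 2 and 3 without ES 2, and 1 and 8 of 12 after that subtraction. The cofactor gene Tead4 fell from 22.3 and 22.8 to 3.58 and 3.96 RPKM and the receptor kinase gene Axl rose from 0.527 and 0.606 to 6.04 and 10.7, with 295 and 294 in MEF. Of 13 kept LIN28 and let-7 target genes 3 rose and 4 fell, and without either ES library only 1 rose.

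Housekeeping and chromatin lists stayed near the background share of 55.5%. Calls were made for 18 of 34 replication genes (10 higher, 8 lower), 12 of 25 sterol synthesis genes (5 and 7), 13 of 27 ATF4 and serine-glycine genes (10 and 3), 12 of 24 Polycomb genes (3 and 9) and 11 of 21 BAF chromatin remodeller genes (4 and 7). The catalytic Polycomb subunit gene Rnf2 fell from 90.4 and 92.4 to 34.9 and 37.7 RPKM, and Ezh1, an alternative H3K27 methyltransferase gene, rose from 3.32 and 3.18 to 17.7 and 10.8. In BAF, Smarcd3 and the non-canonical subunit gene Brd9 fell by 1.44 and 1.53. Without ES 1 the calls came to 5 in replication, 1 in sterol synthesis, 7 in Polycomb and 4 in BAF, and without ES 2 to 4, 1, 7 and 4.

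**Figure D5:**
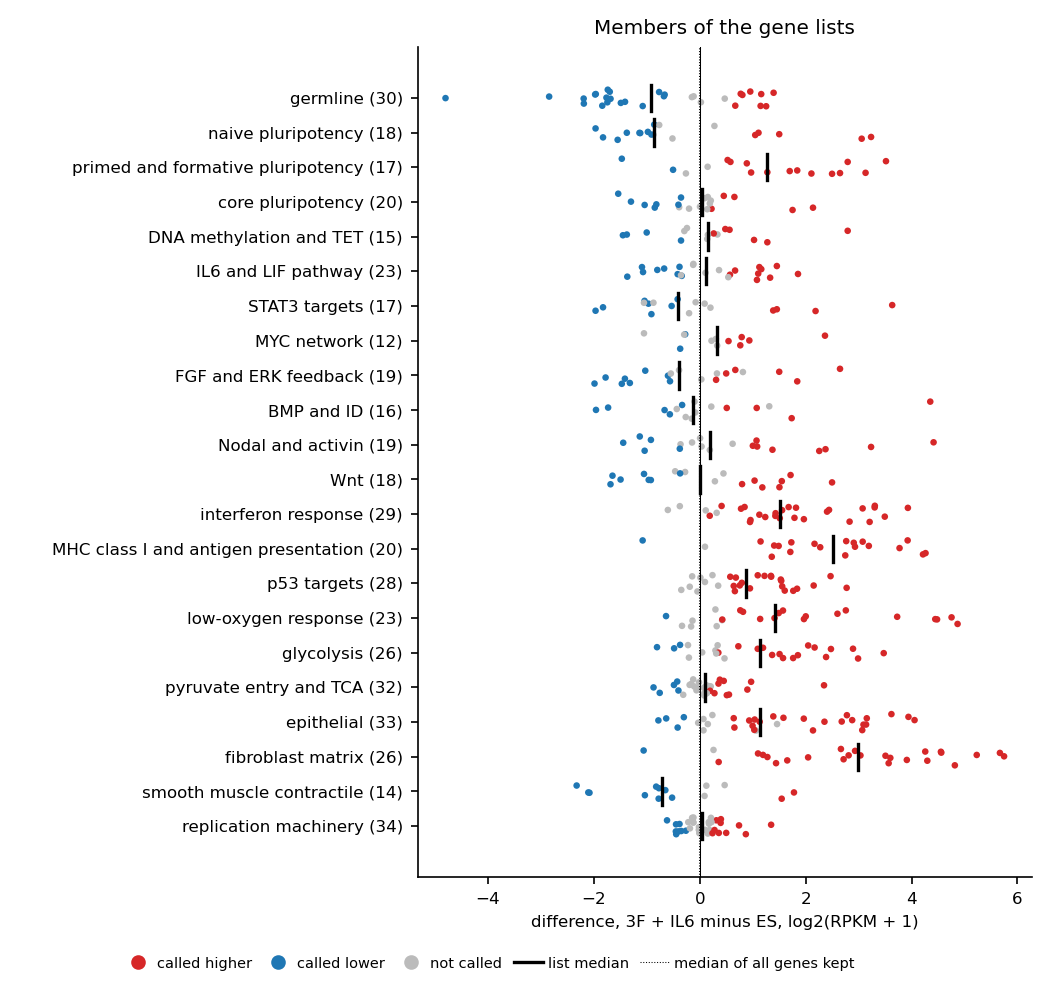
Difference between the 3F + IL6 clones and the ES cells, on the log2(RPKM + 1) scale, for every kept member of 22 gene lists, with the number kept in brackets, called members coloured by direction and list medians as black bars. Medians are 2.98 for fibroblast matrix, 2.51 for MHC class I, 1.51 for interferon response and -0.92 for germline, against -0.017 for all genes (dotted line).

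The clones also differed from each other, which no test can judge with 1 library each. They were 1 or more apart on the log2(RPKM + 1) scale at 173 genes, and the ES libraries at 71. Only 9 genes had clones 2 or more apart, ES libraries under 0.5 apart and 5 RPKM or more in the higher clone, and 5 of these are small RNAs without a poly-A tail. The other 4 are Ndufa4l2 and Ripply1, higher in clone 1, and Trh and Cyp26a1, higher in clone 2. Trh, the thyrotropin-releasing hormone gene, was at 39.0 and 169 RPKM in clones 1 and 2 against 50.0 and 46.7 in ES and 46.4 and 49.3 in the 4F clones. Cyp26a1, which degrades retinoic acid, was at 0.293 and 5.51 RPKM against 1.46 and 1.5 in ES, so 1 clone lay below the ES cells and the other above. Ripply1, a transcriptional co-repressor gene, was at 22.2 and 4.01 against 1.77 and 2.79. None of these 3 was called between the groups. Trh and Cyp26a1 were called higher without clone 1 (1.78 and 1.39) and lower without clone 2 (-0.30 and -0.94), and Ripply1 was called higher without clone 2 (2.84), with all 8 libraries and with array weights (limma adjusted p = 0.0386 and 0.0405).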

How the data were processed

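Poly-A RNA of 8 libraries was sequenced with 50 bp reads from 500 ng RNA, per the labels' protocols, and mm10 is the build that the submitters' processing notes name. Which aligner, counter and gene models were used is not given in the sources used here. The authors deposited 1 table of RPKM-like values per library, already divided by gene length and library size as far as the steps between low values show; the header names no unit. They were read as RPKM, and whole reads could not be recovered, so depths are estimates and no count model was used. Genes with at least 1 RPKM in 2 of the 4 libraries were kept, log2(RPKM + 1) was taken, and limma 3.58.1 (R 4.3.3) was fitted to these 4 libraries with a trended prior, which leaves 2 residual degrees of freedom. P-values were adjusted by Benjamini-Hochberg over all kept genes. Fold changes on this scale are understated for low genes. The script was tested on simulated data. The labels give the clones as independently derived and the ES libraries as biological replicates.

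Named were the 12 largest called changes per direction, genes under 0.5 RPKM in 1 group and at 5 or more in the other, clone-specific genes, whole short lists and up to 5 members of other lists by p. Further list members and Aurkc were named after their values were seen. The members and the 44 gene lists were chosen with earlier results of these data known. Gene positions are GENCODE M21 (mm10); promoters are RefSeq GRCm38.p6. The fibroblast share of a library is its median percent of the MEF mean over 12 markers. Negative values left by its subtraction were cut off at the floor of the scale. Alternatives were another pseudocount, filter, scaling, prior, weighting, library set and replicate block, each library left out, and that share subtracted. Rescaling after the subtraction was added after seeing the data. Some genes that the naming rule covers are not reported here.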

Additional observations from a re-analysis of the deposited data

How the results depend on the processing

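The 6764 calls rest on 2 libraries a group. With 1 library left out, the total ranged from 3029 to 9158, those higher from 1814 to 4378, and those lower from 1215 to 4824; the lone sample is then assumed to vary like the other group. Without a clone the spread comes from the ES pair alone, which was the tighter one. With a mean of at least 5 RPKM, 8408 genes were tested, 2108 were higher and 1125 differed by at least 1. The other alternatives gave 6527 (no trend) to 8000 (all 8 libraries) calls in total. Replicate numbers did not pair the samples (r = 0.0425 across genes between the first replicates' deviations), and a replicate block gave 6642 calls; it lost the call of Snrpn and called Klf4, Myc, Id3, Xaf1, Trp53, Hif1a, Krt8 and Ripply1. Subtracting the fibroblast share reversed Sparc (-1.07), Tpm2 (-1.77), Id3 (-2.63), Mdm2 (-0.13), Ccnd2 (-1.24), H19 (-0.12) and Igf2 (-2.75). Negative values were cut off at the floor of the scale, which Tpm2, Ccnd2 and Igf2 reached in both clones and Id3 in clone 1. After rescaling, Sparc was at -0.92, Tpm2 at -1.77, Id3 at -2.59, Ccnd2 at -1.24 and Igf2 at -2.75, and the calls were 3308 higher and 3319 lower. Pou5f1 reversed to -0.11 under quantile normalization. With a clone left out, Slc2a1 ranged from -0.068 to 0.66, Trh from -0.30 to 1.78 and Cyp26a1 from -0.94 to 1.39. Cyp26a1 was also at -0.089 with a pseudocount of 0.1 and at -0.020 under quantile normalization. Where no cause is given, the cause was not tested. Estimated depth limits genes near 1 RPKM, and no interval for counting error could be given.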
